A study of Mus musculus with 6 samples.

Results

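The genes described here are 10 core genes of the major histocompatibility complex (MHC) antigen presentation pathways of the mouse. The class I members are H2-K1 and H2-D1, the heavy chains, and B2m, their light chain. The class II members are H2-Aa, H2-Ab1 and H2-Eb1, which encode the peptide-binding chains, Cd74, the invariant chain, H2-DMa and H2-DMb1, the chains of the peptide editor H2-DM, and Ciita, the class II transactivator. They were taken by symbol, and make up 10 of the 32285 genes in the tables, of which 24734, all 10 members included, had a UMI (unique molecular identifier, 1 counted RNA molecule).

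They were measured by droplet single-cell RNA-seq in cells of dorsal skin sorted for tdTomato, which is switched on by tamoxifen-inducible Cre under the control of Cdh5, the VE-cadherin gene. There were 3 groups with 2 libraries each, 1 mouse per library. WT telogen (PD20, the resting phase of the hair cycle) and WT anagen (PD32, the growth phase) came from C57BL/6;CD1 mice carrying tdTomato, Cdh5-CreERT2 and Krt14-H2BGFP. KO telogen (PD25) came from C57BL/6 mice carrying Alk1 flox/flox, tdTomato and Cdh5-CreERT2, without the H2BGFP transgene. All mice received tamoxifen (200 μg/g) at PD17, so the recombining Cre and the drug are shared by every group, but the time since the drug is not. WT anagen and WT telogen differ in age and time since tamoxifen along with stage, and these effects cannot be told apart. Strain, age, time since tamoxifen and the H2BGFP transgene differ along with the Alk1 genotype, and their effects cannot be told apart from it. The sort also carries cells without an endothelial signature, including many immune cells.

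MHC class I molecules are found on most nucleated cells and show peptides from the cytosol to CD8 T cells. MHC class II molecules are mainly carried by dendritic cells, B cells and macrophages, and show peptides from endocytosed proteins to CD4 T cells, with Cd74 guarding the groove until H2-DM loads a peptide. Interferon-γ raises both pathways, through Nlrc5 for class I and Ciita for class II, and cultured endothelial cells are a classic responder.

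Of the 10 members, 7 lie between bases 33996017 and 35267499 of chromosome 17 (GRCm38), the mouse H2 complex: H2-K1 at 33996017-34000347, H2-DMa at 34119541-34139101, H2-DMb1 at 34153072-34160230, H2-Ab1 at 34257689-34269419, H2-Aa at 34282744-34287823, H2-Eb1 at 34305867-34316674 and H2-D1 at 35262730-35267499. B2m lies on chromosome 2 (122147686-122153083) and Ciita on chromosome 16 (10480059-10528418). RefSeq windows (GRCm38.p6) from 250 bases before to 50 bases after the start were matched for 7 members, and H2-Ab1, Cd74 and Ciita had no entry. The 5 windows printed here are those of the class I heavy and light chains and of the class II peptide-binding chains H2-Aa and H2-Eb1, the genes that most of the comparisons below turn on. H2-K1 is at chr17:34000298-34000597 (minus strand), H2-D1 at chr17:35262844-35263143 (plus strand), B2m at chr2:122147437-122147736 (plus strand), H2-Aa at chr17:34287774-34288073 (minus strand) and H2-Eb1 at chr17:34305617-34305916 (plus strand). Capitals mark matches, on either strand, to the X2 core (TGACG), the X2-like repeat (TGATGATG), the Y box (ATTGG), the kB site and an interferon-response-like motif (TTTCNNTTC).
H2-K1: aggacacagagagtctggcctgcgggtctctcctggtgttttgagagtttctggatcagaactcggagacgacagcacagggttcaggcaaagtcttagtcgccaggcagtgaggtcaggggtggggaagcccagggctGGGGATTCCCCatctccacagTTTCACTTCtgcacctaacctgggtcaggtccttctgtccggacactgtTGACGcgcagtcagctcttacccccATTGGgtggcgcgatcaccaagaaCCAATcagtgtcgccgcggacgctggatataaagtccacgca
H2-D1: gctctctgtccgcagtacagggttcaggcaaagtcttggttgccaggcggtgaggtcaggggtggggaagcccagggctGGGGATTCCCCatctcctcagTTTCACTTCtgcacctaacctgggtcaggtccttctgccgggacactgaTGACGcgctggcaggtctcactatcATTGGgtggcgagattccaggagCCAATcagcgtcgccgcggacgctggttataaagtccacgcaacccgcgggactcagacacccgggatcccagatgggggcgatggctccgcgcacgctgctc
B2m: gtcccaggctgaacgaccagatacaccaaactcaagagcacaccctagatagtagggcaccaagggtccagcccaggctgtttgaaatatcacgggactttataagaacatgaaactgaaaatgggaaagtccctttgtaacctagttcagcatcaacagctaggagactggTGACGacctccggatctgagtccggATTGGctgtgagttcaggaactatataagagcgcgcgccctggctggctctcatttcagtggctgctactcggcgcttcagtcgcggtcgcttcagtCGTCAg
H2-Aa: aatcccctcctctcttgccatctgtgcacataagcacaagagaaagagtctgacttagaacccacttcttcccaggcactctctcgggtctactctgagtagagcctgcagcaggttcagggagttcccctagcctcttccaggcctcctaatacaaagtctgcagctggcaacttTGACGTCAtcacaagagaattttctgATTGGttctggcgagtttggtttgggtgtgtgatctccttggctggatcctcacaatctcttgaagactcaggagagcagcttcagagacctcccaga
H2-Eb1: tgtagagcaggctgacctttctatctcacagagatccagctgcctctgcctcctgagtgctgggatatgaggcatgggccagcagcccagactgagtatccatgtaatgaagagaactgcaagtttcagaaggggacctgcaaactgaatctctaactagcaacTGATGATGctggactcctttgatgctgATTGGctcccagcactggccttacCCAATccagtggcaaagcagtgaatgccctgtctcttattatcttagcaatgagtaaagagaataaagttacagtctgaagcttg

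An X2 core or X2-like repeat followed after 19 to 21 bases by a Y box was found in 6 of the 7 member windows, and in 68 of 32851 promoter windows of the same length (0.207%). The X2-like repeat and the spacing were chosen after the sequences were seen. The spacing was 20 bases in H2-K1, H2-D1, B2m and H2-DMb1, 21 bases in H2-Aa and 19 bases in H2-Eb1. H2-DMa, whose window starts inside the longer gene model, held no match to any motif searched. Taken singly the motifs are common: the Y box is in 37.4% of all windows, the X2 core in 20.8% and the X2-like repeat in 1.44%. The kB site was in 10 windows (0.0304%), H2-K1 and H2-D1 among them, and the interferon-response-like motif in 7.52%. Over the 240 bases that the H2-K1 and H2-D1 windows share when set on the kB site, 176 bases were the same (73.33%). The heavy chain genes are also alike in their transcripts and vary between strains, so reads can be shared among H2-K1, H2-D1 and the H2-Q and H2-T genes, and CD1-derived alleles may align less well to the C57BL/6 reference. Their counts are therefore uncertain in absolute terms.

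Across libraries 10615358 to 43317677 UMIs were counted, the 2 KO-labelled libraries being the shallowest. After filtering, 20941 of 27418 barcodes were kept, with 4371 to 6935 UMIs per cell at the median. Between 1 and 8 barcodes were shared by any pair of libraries. Cells were clustered without the members, and classes were named from marker genes. A blood endothelial cluster led by Prdm1 and Rsad2 met no marker set and is given by those genes. All levels are counts-per-million (CPM), the UMIs of a gene scaled to the total UMIs of the summed cells of a class, from 3′ tags, not divided by transcript length. Immune-like cells held 44.2% and 57.0% of the UMIs in WT telogen, 10.7% and 3.15% in WT anagen and 5.66% and 12.4% in the KO-labelled libraries. WT anagen replicate 1 stood apart: its summed class I level was the highest of the 4 WT libraries in every endothelial class. In bulk sums of this kind fewer expressing cells and less RNA per cell cannot be told apart.

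Class I RNA was high in endothelial cells of every kind and low in perineurial-like cells. Immune-like classes lay on both sides of the endothelial ones, with mast-like cells below for H2-K1 and macrophage-like cells above for B2m. In the order of mean H2-K1 level over the 4 WT libraries, the Prdm1/Rsad2 endothelial cluster stood at 1562 ± 336 CPM (SD, n = 4), macrophage-like cells at 1395 ± 227 CPM, artery-like cells at 1313 ± 390 CPM, vein-like cells at 1274 ± 349 CPM, capillary-like cells at 1049 ± 262 CPM and lymphatic-like cells at 984 ± 500 CPM. T and NK cell-like cells were above these at 1823 ± 431 CPM (n = 3). These neighbours differed by less than their spread. Below them, pericyte-like, fibroblast-like and mast-like cells lay between 465 and 595 CPM. Schwann-like cells (241 ± 79.7 CPM, n = 3) and perineurial-like cells (194 ± 70.1 CPM) came last, and the Schwann-like libraries did not overlap the mast-like ones next above.

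H2-D1 followed a like order. Its means were 2812 ± 1099 CPM in artery-like cells, 2317 ± 932 CPM in vein-like cells, 2048 ± 1193 CPM in lymphatic-like cells, 2041 ± 767 CPM in capillary-like cells and 487 ± 207 CPM in perineurial-like cells. Dendritic-like cells were highest (3197 ± 608 CPM). B2m varied least among the class I members. It was highest in macrophage-like cells (2525 ± 322 CPM), above the range of the Prdm1/Rsad2 cluster (1646 ± 316 CPM), and it stood at 1447 ± 272 CPM in capillary-like, 1228 ± 255 CPM in artery-like, 1164 ± 498 CPM in lymphatic-like and 649 ± 39.3 CPM in perineurial-like cells.

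**Figure D1:**
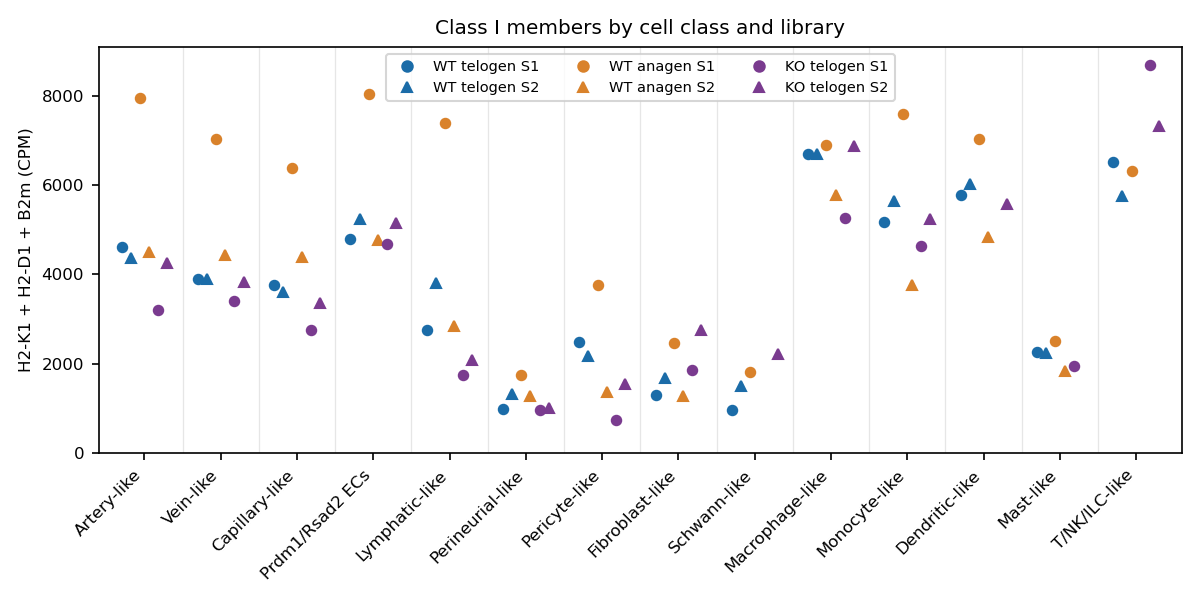
Summed CPM of H2-K1, H2-D1 and B2m (y axis, linear) in each cell class (x axis), with 1 point per library, coloured by group. WT anagen replicate 1 is the top WT point in the endothelial classes, reaching 7945 CPM in artery-like cells, and perineurial-like cells sit between 973.1 and 1738 CPM.

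The class pairs were tested with edgeR on the WT sums with the library as a block, and a difference is called where the adjusted p over all genes is below 0.05 and the fold exceeds 1.3. Against pooled artery-, vein- and capillary-like cells, perineurial-like cells had less of 7 of the 9 members tested, where 30.3% of all genes were called lower and 32.2% higher. H2-K1 per library was 108.2 and 216.4 CPM (WT telogen) and 275.3 and 177.6 CPM (WT anagen) in perineurial-like cells, against 1050, 932.5, 1609 and 1231 CPM in blood endothelial cells. Not one perineurial-like value came near the lowest endothelial value. The log2 difference was -2.77 ± 0.17 for H2-K1 (SE, adjusted p = 6.48e-08, edgeR), -2.42 ± 0.11 for H2-D1 (adjusted p = 5.75e-09) and -1.08 ± 0.11 for B2m (adjusted p = 3.99e-06), and these 3 calls held in 9 of 9 alternatives. The others were H2-Ab1 (-1.06 ± 0.16), H2-Eb1 (-0.93 ± 0.18), Cd74 (-1.16 ± 0.27) and H2-DMb1 (-1.62 ± 0.43), all at endothelial levels that are themselves close to the immune background described further on. Among the 13 genes for class I loading and processing, 10 were lower and 0 higher. Psmb8, an immunoproteasome subunit, differed most (-4.05 ± 0.22), and among other class I genes H2-Q6 did (-3.81 ± 0.27). The largest rises among the pathway genes were in Socs1, an inhibitor of cytokine signalling (+2.32 ± 0.16), Ifi30 (+1.94 ± 0.15) and Irf1, an interferon-induced activator (+0.82 ± 0.10).

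Class I differences between blood and lymphatic endothelial cells were small. H2-K1 was higher in blood (+0.42 ± 0.15, adjusted p = 0.0267, edgeR), a call kept in 5 of 9 alternatives. H2-D1 stood at +0.35 ± 0.12 (adjusted p = 0.022), under the fold required. Of 9 members tested, this 1 was higher and 3 were lower in blood, where 23.8% of all genes were higher and 24.6% lower. The lower ones were class II genes, H2-Ab1 (-1.29 ± 0.32, adjusted p = 0.00368), H2-Eb1 (-1.01 ± 0.29, adjusted p = 0.00878) and H2-DMa (-1.004 ± 0.36, adjusted p = 0.028), and without WT anagen replicate 1 H2-Eb1 and H2-DMa were no longer called. The libraries overlapped for each of them, and levels this low are set against an immune background further on. Of the immune genes used there, C1qb was also called lower in blood (-0.80 ± 0.29) and Laptm5 higher (+0.73 ± 0.26). In the loading list 10 of 13 genes were higher in blood, led by Psmb9, an immunoproteasome subunit (+1.32 ± 0.20). Ifngr1, an interferon-γ receptor chain, was higher as well (+2.03 ± 0.13), and Cd1d1, a lipid-presenting class I-like gene, was lower (-2.98 ± 0.16).

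Within the blood vessels, vein-like cells had more H2-K1 than capillary-like cells. H2-K1 of the whole classes was 1040, 997.6, 1756 and 1303 CPM in vein-like cells and 878.5, 790.3, 1359 and 1169 CPM in capillary-like cells of the same libraries, higher in 4 of 4 libraries (+0.43 ± 0.07, adjusted p = 0.000202, edgeR). H2-D1 of the whole classes went the same way in 4 of 4 libraries but under the fold required (+0.33 ± 0.06, adjusted p = 0.000606). Of 7 members tested 1 was higher and 2 lower, against 17.5% and 16.7% of all genes. The lower ones were H2-Eb1 (-1.18 ± 0.31, adjusted p = 0.00787) and Cd74 (-1.01 ± 0.33, adjusted p = 0.0243). Nlrc5, the class I transactivator, was higher in vein-like cells (+1.22 ± 0.30, adjusted p = 0.00500), as were Irf8, an interferon regulatory factor (+1.67 ± 0.15), and Lgmn, a lysosomal protease (+2.29 ± 0.13). Socs1 was lower (-1.40 ± 0.23).

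Class II RNA belonged almost wholly to immune-like cells. Of the UMIs of Cd74, H2-Aa, H2-Ab1 and H2-Eb1, 98.1% to 99.7% lay in immune-like cells in each of the 6 libraries. The sum of these 4 genes in dendritic-like cells was 72552 and 63861 CPM in WT telogen and 93362 and 119385 CPM in WT anagen. In monocyte-like cells, which also passed 3 dendritic markers, it was 51287 and 39135 CPM in WT telogen, 59431 and 66710 CPM in WT anagen and 44421 and 52740.2 CPM in the KO-labelled libraries. Both classes were far above macrophage-like cells, which are described with the stage comparison. In blood endothelial cells the WT mean was 92.9 ± 69.1 CPM (SD, n = 4).

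The regulator and the editor followed the same classes. Ciita stood at 71.3 ± 13.6 CPM in dendritic-like, 69.8 ± 9.20 CPM in monocyte-like and 6.12 ± 7.22 CPM in macrophage-like cells (SD, n = 4), and at 0.867 CPM in capillary-like cells. It was listed at 0 in fibroblast-like, Schwann-like, mast-like and T and NK cell-like cells of the WT libraries. H2-DMa averaged 1168 CPM in monocyte-like and 995 CPM in dendritic-like cells, and H2-DMb1 averaged 979 and 1101 CPM in these classes. Among endothelial classes H2-DMa averaged 6.82 CPM at most, in lymphatic-like cells.

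The low class II values outside immune cells were set against a panel of 10 immune genes (Lyz2, Tyrobp, Fcer1g, C1qa, C1qb, C1qc, Pf4, Cd52, Laptm5 and Ptprc), since RNA freed from 1 source keeps its genes in 1 ratio in every class of a library. The panel summed to 61.11, 133.4, 23.86 and 10.83 CPM in blood endothelial cells of the WT libraries and to 6.78 and 12.17 CPM in the KO-labelled ones. Class II UMIs per panel UMI in these cells, relative to the same ratio in the library's immune cells, were -0.34 and 0.13 (WT telogen), 0.15 and -0.75 (WT anagen) and -1.09 and -1.05 (KO) on the log2 scale. The WT mean was -0.20 ± 0.43 (SD, n = 4), so blood endothelial cells held class II and panel RNA in about the ratio of the immune cells beside them. Stages did not separate (exact two-sided permutation p = 1), and the KO-labelled libraries were lower at p = 0.3333 by the same exact test, the smallest p that 2 against 2 allows. At a fixed 1500 UMIs per cell, 8.61% ± 5.04 of WT blood endothelial cells had a class II UMI. The share by library was 10.4% and 14.4% in WT telogen, 7.19% and 2.46% in WT anagen and 0.988% and 2.53% in KO telogen. Mast-like cells, which should lack these genes, gave 7.41% and 15.3% in WT telogen (54 and 85 cells) at the same fixed depth. In WT anagen replicate 2 they gave 0 of 14 cells, which allows a share of up to 21.4%. In these 3 libraries the endothelial share was not separable from that of mast-like cells, and it is not read as expression.

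**Figure D2:**
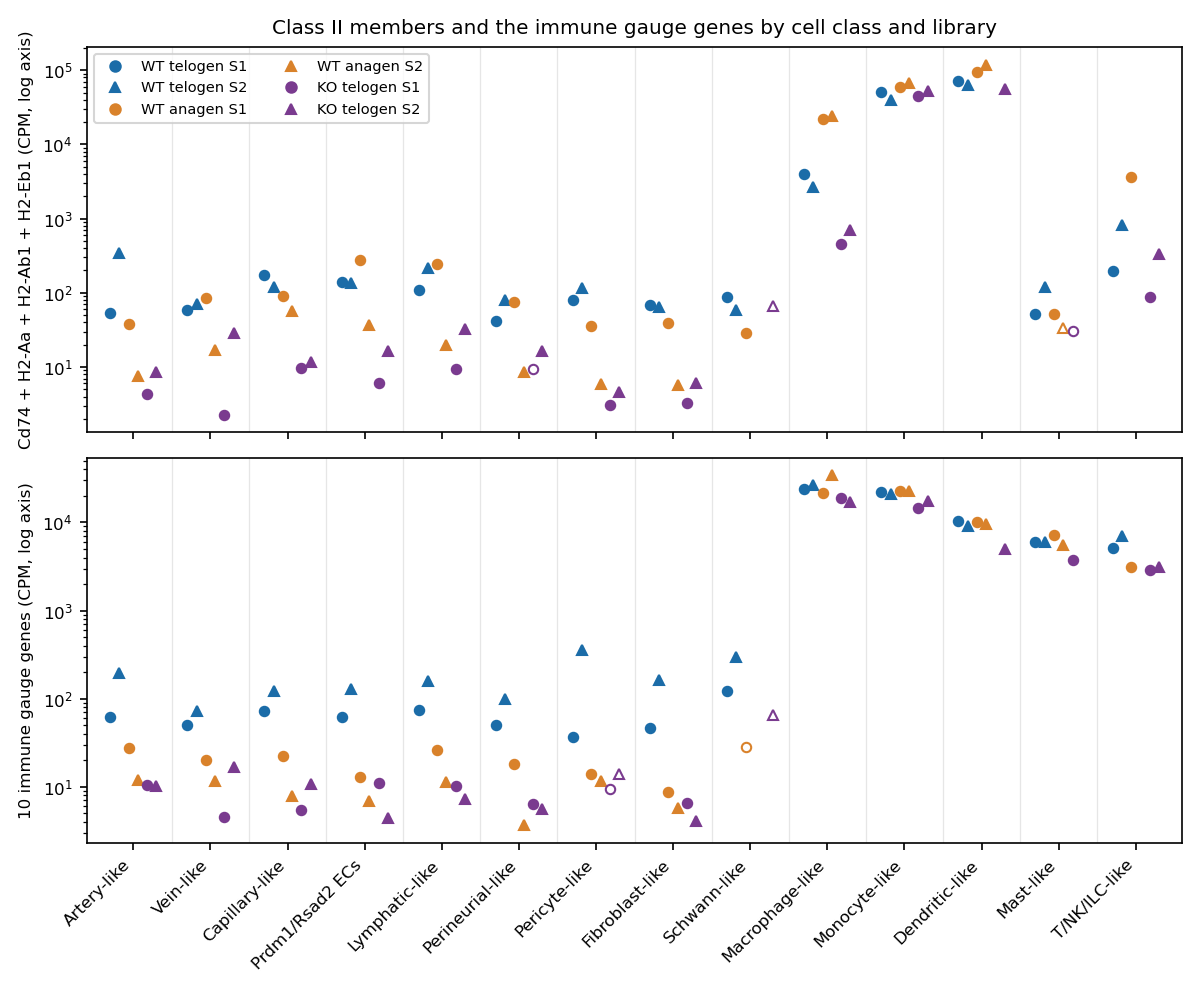
Upper panel, summed class II level (Cd74, H2-Aa, H2-Ab1, H2-Eb1), and lower panel, summed level of the 10 immune genes, per cell class and library on a log axis of CPM. Open symbols are classes with 0 UMIs drawn at the 3-count floor. Both sums are lower in the KO-labelled libraries than in WT telogen in the endothelial classes. Dendritic-like and monocyte-like points lie at or above 39135 CPM of class II, the value of monocyte-like cells in WT telogen replicate 2.

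WT anagen replicate 1 went against this pattern in 2 endothelial classes. Its Prdm1/Rsad2 cluster held 21.2 class II UMIs per panel UMI (1187 against 56 UMIs) and its lymphatic-like cells 9.41 (1026 against 109 UMIs), which is 2.98 and 1.81 above its pooled immune cells on the log2 scale. That pool mixes classes of unlike ratio. Dendritic-like cells of this library, thinned to 1500 UMIs, had 148.5 class II and 14.2 panel UMIs per cell, against 68.5 and 28.9 over the pool. Whether RNA of a single immune class gave these ratios was not tested. At 1500 UMIs per cell, 21 of 486 cells of the cluster (4.32%) and 38 of 737 lymphatic-like cells (5.16%) had at least 2 class II UMIs. Of these cells 0% and 2.63% had a panel UMI, against 1.90% and 3.40% among cells without class II UMIs. So few cells cannot show whether class II positive cells carried the panel more often. In WT telogen replicate 2 the lymphatic-like shares were 50% (of 10 cells) against 16.7%. Those of the Prdm1/Rsad2 cluster there were 0% (of 2 cells) against 25%. H2-Ab1 led in the lymphatic-like cells of this library at 110.8 CPM, with Cd74 at 72.47 CPM. The other WT anagen library had 6.32 and 5.06 CPM of these genes, and its lymphatic-like ratio was below that of its immune cells (-1.08). KO telogen replicate 2 also lay above its pooled immune cells in the lymphatic-like class, by 0.81 (139 against 31 UMIs). Its dendritic-like cells had 71.5 class II and 6.38 panel UMIs per cell at 1500 UMIs, against 28.5 and 15.3 over its immune cells. In these lymphatic-like cells 5 of 781 (0.64%) had at least 2 class II UMIs, and 0% of these had a panel UMI against 1.32% of the cells without class II UMIs. These are again too few cells to compare. Smaller excesses, on few UMIs, occurred elsewhere. In WT anagen replicate 2, class II and panel UMIs per cell at 1500 UMIs were 0.0688 and 0.0132 in capillary-like cells. They were 0.0577 and 0.0105 in the Prdm1/Rsad2 cluster, beside 77.7 and 26.1 in immune cells. Artery-like cells of that library went the other way (0.00791 and 0.0247).

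**Figure D3:**
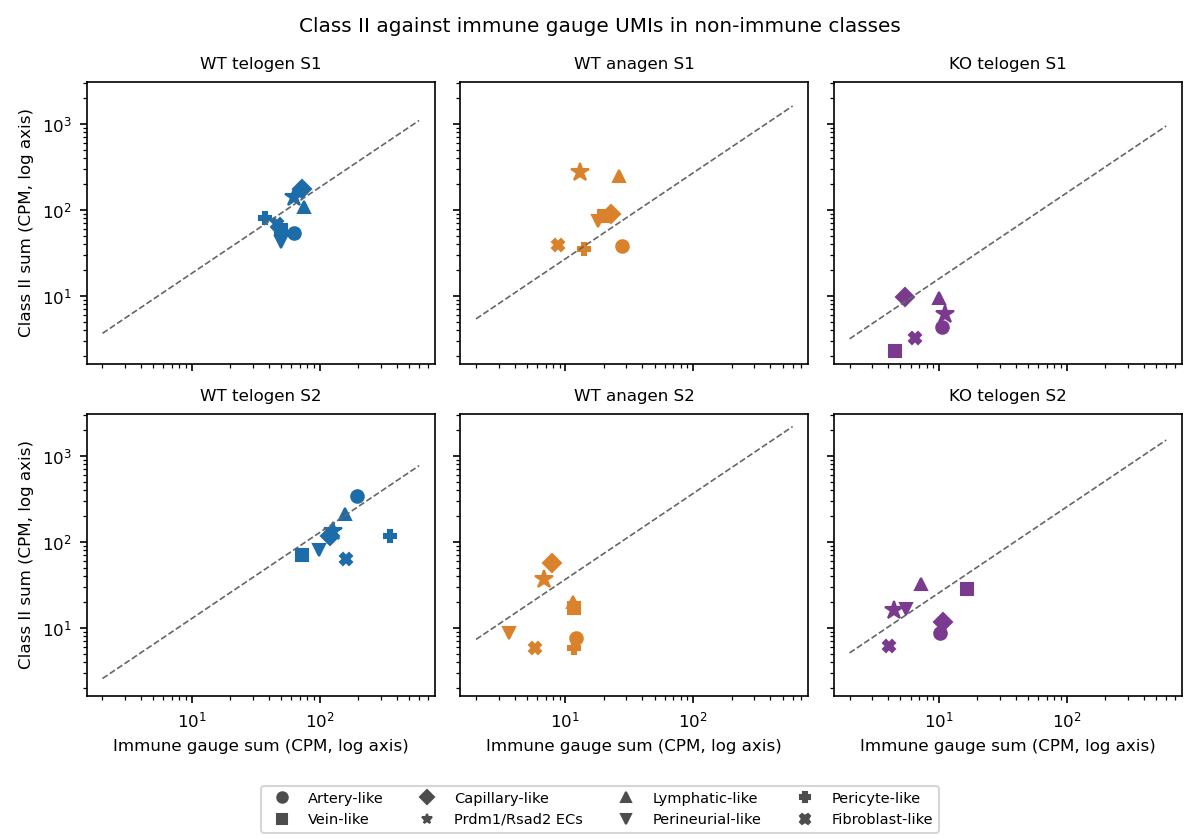
Summed class II level (y axis) against the summed immune panel (x axis), both in CPM, with 1 panel per library and 1 point per non-immune class. The dashed line is the ratio in that library's pooled immune cells, and in WT anagen replicate 1 the Prdm1/Rsad2 cluster and lymphatic-like cells lie above it by 2.98 and 1.81 on the log2 scale.

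Between the hair cycle stages, class II rose in macrophage-like cells, and none of the 3 class I members was called in any class. Over 11 classes and 86 pairs of member and class tested with edgeR, 9 pairs were higher in anagen and 0 lower, where 0.734% of all pairs of gene and class were higher and 0.241% lower. At an unadjusted p under 0.05, 28 pairs were higher and 13 lower, and DESeq2 called 11 higher and 0 lower. The balance of calls depended on single libraries, with 9 higher and 25 lower without WT anagen replicate 1, 36 higher and 6 lower without WT anagen replicate 2, and 9 higher and 7 lower without WT telogen replicate 1.

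In macrophage-like cells Cd74 was 2082 and 1323 CPM in WT telogen and 11197 and 12116 CPM in WT anagen. H2-Aa was 736.6 and 599.5 CPM in telogen and 4965 and 4769 CPM in anagen. H2-Ab1 was 606.6 and 417.6 CPM in telogen and 3707 and 3777 CPM in anagen. The stages did not overlap for any of the 3, with the anagen levels several times the telogen ones. H2-Eb1 was 586.6 and 316.9 CPM in telogen and 1973 and 3598 CPM in anagen. H2-DMb1 was 78.75 and 38.92 CPM in telogen and 193.5 and 311.6 CPM in anagen. The log2 changes were +2.99 ± 0.26 for H2-Aa (SE, adjusted p = 4.4e-05, edgeR), +2.99 ± 0.28 for H2-Ab1 (adjusted p = 5.38e-05), +2.89 ± 0.27 for Cd74 (adjusted p = 5.38e-05) and +2.71 ± 0.34 for H2-Eb1 (adjusted p = 0.000471), each called in 9 of 9 alternatives. The editor chains rose less, by +2.13 ± 0.34 for H2-DMb1 (adjusted p = 0.00223, called in 7 of 9 alternatives) and +1.26 ± 0.27 for H2-DMa (adjusted p = 0.0165, in 5 of 9). Ciita was 4.08 and 3.82 CPM in telogen and 16.58 and 0 CPM in anagen, and did not pass (adjusted p = 0.096). The 0 comes from 15 cells, where the 3-count floor was 28.3 CPM, so it does not show an absence. In this class 6 of 10 members were higher, against 3.65% of all genes.

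The share of macrophage-like cells with at least 5 class II UMIs, at 1500 UMIs per cell, was 23.7% and 17.1% in WT telogen and 80.9% and 64.3% in WT anagen, out of 283, 700, 94 and 14 cells. Anagen therefore rests on few cells in replicate 2, and 13.3% and 40% of the anagen cells with at least 2 class II UMIs were marked as likely doublets. All 10 macrophage markers were detected in each library of this class, summing to 21714 and 24554 CPM in telogen and 16413 and 25298 CPM in anagen. The monocyte markers summed to 4115 and 4065 CPM in telogen and 6739 and 8641 CPM in anagen, and the dendritic markers to 1943 and 1887 CPM against 2849 and 2710 CPM. Their part in the class II difference was not tested.

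**Figure D4:**
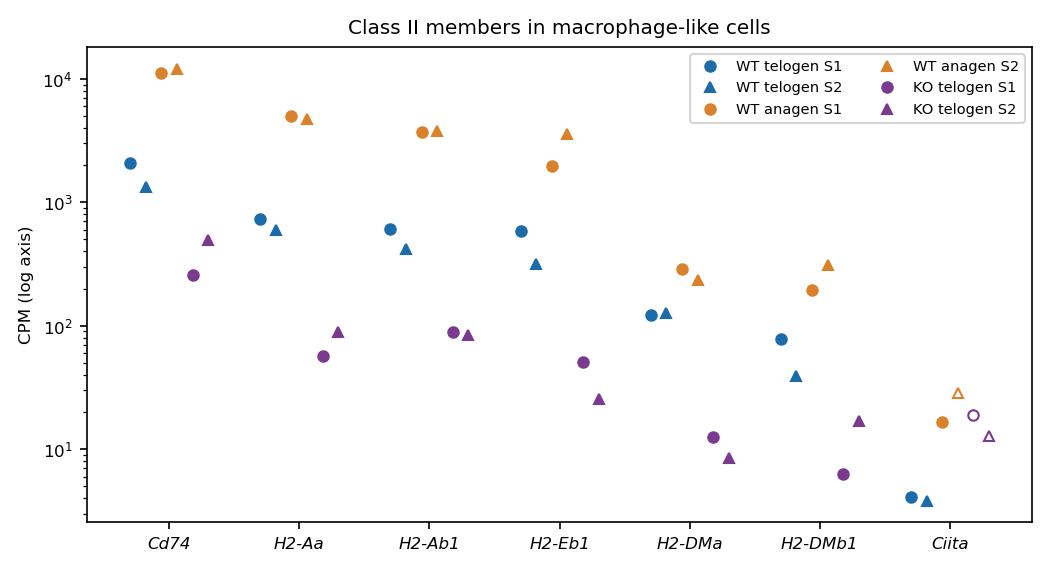
Level of each of the 7 class II members (x axis) in macrophage-like cells, 1 point per library, on a log axis of CPM, with open symbols for 0 UMIs at the 3-count floor. For Cd74, H2-Aa, H2-Ab1, H2-Eb1, H2-DMa and H2-DMb1 the groups fall in the order WT anagen, WT telogen, KO telogen, with Cd74 at 11197 and 12116, 2082 and 1323, and 258.5 and 499.6 CPM.

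T and NK cell-like and mast-like cells carried less. In T and NK cell-like cells the class II sum was 197.9 and 819.5 CPM in WT telogen, 3687 CPM in WT anagen replicate 1 (14 cells) and 88.45 and 332.2 CPM in KO telogen. Within a group the libraries differed several times over, so no order of groups can be read from these few cells. Mast-like cells, despite a summed immune panel of 6178 ± 771 CPM (SD, n = 4), had 55.6 ± 48.8 CPM of class II, near the endothelial level.

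Dendritic-like cells had smaller increases in anagen. Cd74 was 33362 and 28488 CPM in WT telogen and 44722 and 59300.0 CPM in WT anagen, and H2-Ab1 14442 and 14210.2 CPM against 21117 and 20727 CPM, without overlap. The calls were for Cd74 (+1.004 ± 0.16, adjusted p = 0.0478, edgeR), H2-Aa (+0.81 ± 0.12, adjusted p = 0.0379) and H2-Ab1 (+0.80 ± 0.11, adjusted p = 0.0373), where 0.49% of all genes were higher in this class. All 3 calls were lost when likely doublets were left out. Monocyte-like cells had class II changes of +0.41 to +0.72, with no adjusted p below 0.121. Their background is 0 of 8986 genes called.

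Of the 33 class I pairs 0 were called by edgeR, 12 were higher and 0 lower at an unadjusted p under 0.05, and DESeq2 called 2 higher. H2-K1 was 1040 and 997.6 CPM in telogen and 1756 and 1303 CPM in anagen in vein-like cells (+0.71 ± 0.16, adjusted p = 0.0673, edgeR), the nearest to a call. Both anagen values lay above telogen there and in artery- and capillary-like cells, while in lymphatic-like cells the anagen libraries split to either side, at 1719 and 706.9 CPM against 636.9 and 874.0 CPM. In artery-like cells H2-Aa, H2-Ab1, H2-Eb1 and Cd74 had log2 values of -3.21 to -2.91 (adjusted p from 0.0659 to 0.131, edgeR) and did not pass. Cd74 there was 13.85 and 133.6 CPM in telogen and 14.35 and 2.61 CPM in anagen, so the stages overlapped and 1 telogen library stood above the other 3. The immune panel in artery-like cells went from 62.69 and 197.6 CPM to 27.84 and 12.06 CPM.

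The test of whether the stage difference differed between blood and lymphatic endothelial cells called 0 of 9 members with edgeR and 0 with DESeq2, with 3 lower at an unadjusted p under 0.05, where 0.153% of all genes were lower and 0.017% higher. The other pathway genes called with stage were 4 pairs of gene and class. Lgmn rose in vein-like cells (+0.91 ± 0.15, adjusted p = 0.0236, edgeR), and H2-T23, a class I-like gene, rose in perineurial-like cells (+0.88 ± 0.17, adjusted p = 0.0493). In macrophage-like cells March1, a ubiquitin ligase that removes class II from the surface, rose by +1.98 ± 0.43 (adjusted p = 0.0184, edgeR), and Calr, a chaperone of class I loading, fell by 1.04 on the log2 scale. Over all classes the loading list had 1 of 136 pairs called, which was lower. The regulators had 0 of 129 called by edgeR and 0 by DESeq2, with 7 higher and 17 lower at an unadjusted p under 0.05.

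For the KO comparison the targeted gene was read first. Acvrl1, which encodes Alk1, was 312.7 and 280.7 CPM in artery-like cells of WT telogen and 309.1 and 252.3 CPM in the KO-labelled libraries (log2 -0.07, adjusted p = 0.804, edgeR). It was 180.9 and 134.8 CPM against 102.8 and 90.7 CPM in capillary-like cells (-0.88 ± 0.20, adjusted p = 0.00453), and 72.3 and 58.2 CPM against 68.3 and 47.6 CPM in lymphatic-like cells (-0.24, adjusted p = 0.404). It did not pass in vein-like cells either. Besides capillary-like cells it was called lower in the Prdm1/Rsad2 cluster (-0.69 ± 0.23), and, at lower levels, in fibroblast-like (-1.29 ± 0.34), pericyte-like (-1.88 ± 0.45) and macrophage-like cells (-3.40 ± 0.92, from a mean of 27.7 to 2.12 CPM). Reads at the 3′ end may lie outside the floxed part, in which case they do not report its removal. The libraries are called KO-labelled for this reason.

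Members were called lower in the KO-labelled libraries, class II in most classes and class I in lymphatic-, capillary- and perineurial-like cells, and none was called higher. Over 10 classes 34 of 75 pairs were lower (6 of 30 for class I, 28 of 45 for class II and its regulators), where 10.3% of all pairs of gene and class were lower and 8.71% higher. At an unadjusted p under 0.05, 47 pairs were lower and 1 higher, and DESeq2 called 24 lower and 0 higher. The median log2 change over the 75 pairs was -1.38, beside medians over all genes of -0.16 to 0.02 in the 10 classes.

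Among the called pairs class I differed most in lymphatic-like cells. H2-K1 was 636.9 and 874.0 CPM in WT telogen and 262.2 and 280.8 CPM in the KO-labelled libraries, with no overlap (-1.53 ± 0.15, adjusted p = 6.84e-05, edgeR, called in 9 of 9 alternatives). H2-D1 was 1254 and 1757 CPM against 716.1 and 1147 CPM (-0.75 ± 0.21, adjusted p = 0.0221), and B2m 856.4 and 1184 CPM against 777.1 and 649.8 CPM (-0.57 ± 0.16, adjusted p = 0.0241), each called in 8 of 9 alternatives. In this class 13.6% of all genes were lower. All 3 class I genes were thus lower in these cells, H2-K1 the most. In blood vessels the H2-K1 difference was smaller: -0.62 ± 0.16 in capillary-like cells (adjusted p = 0.0109, where 18.7% of all genes were lower), -0.51 ± 0.16 in artery-like (adjusted p = 0.0513) and -0.43 ± 0.15 in vein-like cells (adjusted p = 0.0566). B2m in capillary-like cells passed narrowly (-0.44 ± 0.16, adjusted p = 0.0469) and was called in 3 of 9 alternatives. In perineurial-like cells H2-K1 was 108.2 and 216.4 CPM against 66.56 and 66.31 CPM (-1.38 ± 0.38, adjusted p = 0.0187, called in 5 of 9), where 11.5% of all genes were lower. Macrophage-like, monocyte-like and T and NK cell-like cells had no class I call.

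**Figure D5:**
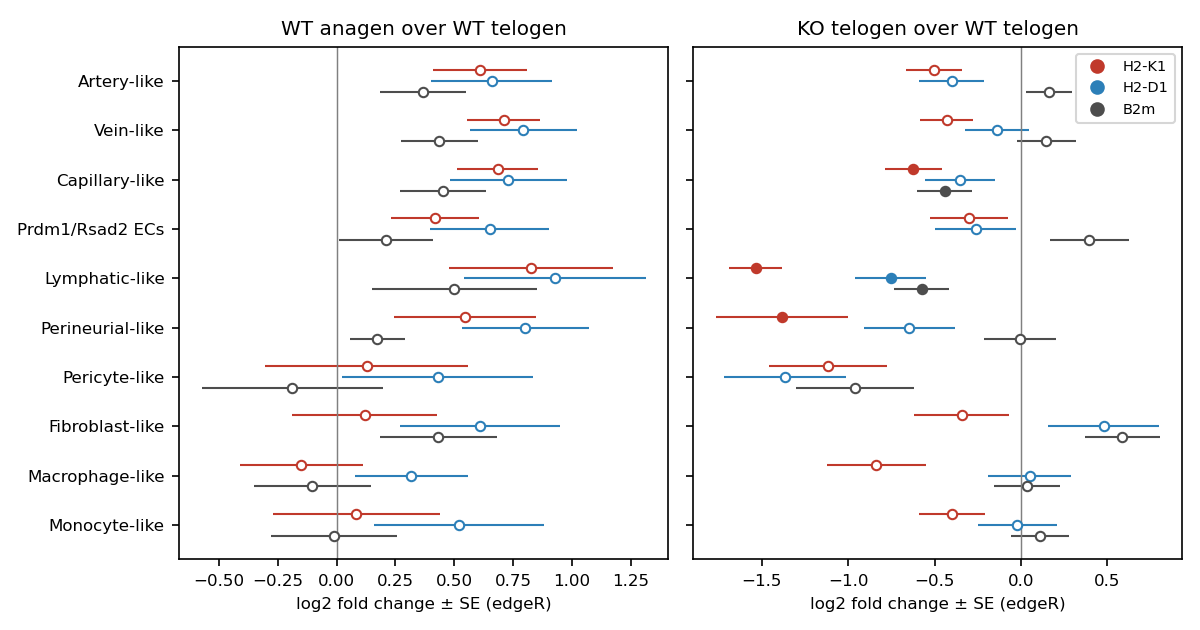
Log2 fold change with its standard error (derived from the edgeR F statistic) of H2-K1, H2-D1 and B2m in each class, for anagen over telogen and for KO-labelled over WT telogen. Filled symbols mark calls: none for stage, and for KO all 3 genes in lymphatic-like cells, with H2-K1 at -1.53, H2-K1 and B2m in capillary-like cells and H2-K1 in perineurial-like cells.

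The difference between vessel types was tested directly, in a comparison chosen after the data were seen. The KO difference in pooled blood endothelial cells minus that in lymphatic-like cells was +1.01 ± 0.16 for H2-K1 (adjusted p = 0.000164, edgeR, called in 9 of 9 alternatives), +0.56 ± 0.15 for B2m (adjusted p = 0.0117, in 5 of 9) and +0.43 ± 0.13 for H2-D1 (adjusted p = 0.0246, in 4 of 9). These were the 3 of 9 members called, where 9.94% of all genes were higher and 9.98% lower. H2-Q6 and H2-Q7, further class I genes that can share reads with the heavy chains, were also higher (+1.72 ± 0.46 and +1.72 ± 0.28).

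The change in H2-K1 was larger than that in H2-D1 in lymphatic-like cells, so their ratio moved. H2-K1 UMIs per H2-D1 UMI were 0.508 and 0.497 in WT telogen, 0.451 and 0.516 in WT anagen and 0.366 and 0.245 in the KO-labelled libraries. In artery-like cells the ratio was 0.522 and 0.429 in WT telogen and 0.510 and 0.402 in KO telogen, with overlap. In macrophage-like cells it was 0.684 and 0.580 in WT telogen, 0.478 and 0.425 in WT anagen and 0.307 and 0.361 in KO telogen. Since the strains differ between the groups and these genes are polymorphic, a change in how alleles align cannot be told apart from a change in level.

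B2m followed the heavy chains less closely in 1 of the KO-labelled libraries. B2m UMIs per heavy chain UMI (H2-K1 and H2-D1 together) in lymphatic-like cells were 0.453 and 0.450 in WT telogen, 0.336 and 0.364 in WT anagen and 0.794 and 0.455 in KO telogen. In artery-like cells they were 0.3328 and 0.3309, 0.254 and 0.313, and 0.636 and 0.413 in the same order. The first KO-labelled library was the highest of the 6 in both classes, and the other was nearer to WT telogen. Perineurial-like cells had the highest ratios of the classes named here, at 1.496 and 1.001 in WT telogen and 2.61 and 1.65 in KO telogen.

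Class II was lower in the KO-labelled macrophage-like cells. Cd74 was 2082 and 1323 CPM in WT telogen and 258.5 and 499.6 CPM in KO telogen (-2.12 ± 0.34, adjusted p = 0.00427, edgeR), H2-Aa 736.6 and 599.5 CPM against 56.75 and 88.92 CPM (-3.14 ± 0.31, adjusted p = 0.000541), and H2-DMa 123.2 and 126.0 CPM against 12.61 and 8.47 CPM (-3.59 ± 0.41, adjusted p = 0.00106). H2-Ab1 (-2.55 ± 0.31) and H2-Eb1 (-3.63 ± 0.44) were also called, and all 5 calls held in 9 of 9 alternatives, against 7.8% of all genes lower in this class. The median of all genes was -0.16 in this class. The KO-labelled class holds 24 and 32 cells, and 4.55% and 4% of those deep enough (22 and 25 cells) had at least 5 class II UMIs. All 10 macrophage markers were detected there, but their sum was 13513 and 13105 CPM against 21714 and 24554 CPM in WT telogen. Pf4 (-1.71 ± 0.19, from a mean of 5616 to 1691 CPM), Fcer1g (-0.94 ± 0.21), C1qa (-0.91 ± 0.21) and Tyrobp (-0.89 ± 0.23) were called lower in these cells, and Lyz2 was called higher (+0.72 ± 0.18). The monocyte markers (7239 and 5987 CPM) and dendritic markers (3304 and 2210 CPM) were above their telogen sums. The part of these shifts in the class II difference was not tested. No class I gene was called in the same cells, with B2m at +0.03 (adjusted p = 0.933) and H2-D1 at +0.05 (adjusted p = 0.915). H2-K1 was lower relative to H2-D1, with ratios of 0.307 to 0.361 in KO telogen and 0.580 to 0.684 in WT telogen. In monocyte-like cells 0 of 10 members were called by edgeR or DESeq2 and 0 reached an unadjusted p under 0.05, where 0.201% of all genes were lower, with Cd74 at +0.23 and H2-Aa at +0.40.

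In non-immune cells class II fell along with the immune panel. In lymphatic-like cells H2-Eb1 was 23.87 and 28.52 CPM in WT telogen and 2.72 and 1.87 CPM in KO telogen (-3.57 ± 0.32, adjusted p = 3.9e-05, edgeR), and Cd74 was 30.28 and 84.01 CPM against 1.36 and 10.73 CPM (-3.22 ± 0.58, adjusted p = 0.00258). In capillary-like cells Cd74 was 98.95 and 51.86 CPM against 5.41 and 5.92 CPM (-3.87 ± 0.44, adjusted p = 3.99e-05). The immune panel was 75.16 and 157.9 CPM against 10.07 and 7.23 CPM in lymphatic-like cells, and 72.96 and 121.3 CPM against 5.41 and 10.85 CPM in capillary-like cells. Panel genes themselves were called lower in 18 of 23 pairs in the non-immune classes. The part of immune RNA in these class II differences was not tested beyond the ratios given earlier. Where both KO-labelled libraries had 0 UMIs, Cd74 was at least 6.55-fold lower in pericyte-like and at least 5.63-fold lower in fibroblast-like cells, from a floor of 3 counts over the group.

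The loading and processing genes were lower in the KO-labelled libraries in 56 of 130 pairs and higher in 0 (at an unadjusted p under 0.05, 72 lower and 0 higher, and by DESeq2 53 lower and 0 higher), with a median log2 change of -0.78. Calr in capillary-like cells was 515.7 and 499.9 CPM in WT telogen and 134.2 and 147.0 CPM in KO telogen (-2.02 ± 0.17, adjusted p = 4.54e-06, edgeR). Psmb8, named after its values were seen, was 194.9 and 207.4 CPM against 84.4 and 93.7 CPM in the same cells. Both immunoproteasome subunits and chaperones are in this group, and the macrophage-like cells shared it, with Psmb9 at -2.17 ± 0.30 and Psmb8 at -2.31 ± 0.44.

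Other class I genes were higher in 5 and lower in 9 of 86 pairs, near the 8.71% and 10.3% over all pairs of gene and class. H2-Q7 in lymphatic-like cells was 61.3 and 129.3 CPM against 7.9 and 23.8 CPM (-2.61 ± 0.41, adjusted p = 0.00114, edgeR), and Cd1d1 fell there as well (-2.17 ± 0.23), whereas H2-Q4 was higher in vein-like cells (+1.18 ± 0.24). Other class II and processing genes were higher in 4 and lower in 5 of 35 pairs, with Ctss, the protease that trims the invariant chain, higher in macrophage-like cells (+0.96 ± 0.23). Regulators were higher in 11 and lower in 8 of 119 pairs, again near these shares. Irf1, an interferon-induced activator, was higher in lymphatic-like (+0.78 ± 0.14), artery-like (+0.81 ± 0.23) and perineurial-like cells (+0.88 ± 0.22). Nlrc5 in lymphatic-like cells was 3.6 and 3.9 CPM in WT telogen and 2.2 and 3.3 CPM in KO telogen.

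The genes whose levels followed the class I sum most closely over 55 library and class sums of the WT libraries, out of 14025 genes, were Ptpn18 (Pearson r 0.83), Slfn2 (0.82), Lfng (0.77), Abcg1 (0.76) and H2-Q6 (0.76). For the class II sum they were Cd86, Ctss and Ly86 (0.93 each), Tnip3 (0.92) and Cd209a (0.92). These points share 4 libraries and their depth, and the values are given as a description.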

How the data were processed

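Dorsal skin tdTomato+ cells were profiled with the Chromium 3′ v3 kit, and the authors deposited filtered UMI counts per gene and cell for 6 libraries. The submitters' processing notes name Cell Ranger 6.0.1, Seurat 4.0 and mm10. Cells with 200 to 5000 genes and under 10% mitochondrial UMIs were kept (scanpy 1.11.5, Python 3.11.15), and 3000 variable genes, 30 principal components, Harmony, 20 neighbours and resolution 0.6 gave clusters, with 62 genes (members and pathway lists) left out of clustering. A class was named where at least 3 marker genes passed. Lymphatic-like cells include subclusters carrying fewer of these markers that were lymphatic-like among all cells. Doublets were scored, with the top 5% left out as an alternative only. UMIs were summed per library and class with at least 10 cells in each library compared and tested with edgeR 4.0.16 (R 4.3.3; quasi-likelihood F test, filterByExpr, TMM, Benjamini-Hochberg over all genes of the class). Calls needed an adjusted p below 0.05 and more than 1.3-fold change. The SE given with an edgeR log2 change is that change, without its sign, divided by the square root of the F statistic. The pooled blood class and the Prdm1/Rsad2 cluster were left out of counts over classes. DESeq2 1.42.0, other filters, resolution 1.2, a replicate block and leaving out each library were the alternatives. On simulated capillary data (anagen against telogen, 9737 genes) 85 of 96 genes changed 4-fold (88.5%), 40 of 97 changed 2-fold (41.2%) and 14 of 9544 unchanged genes (0.147%) were called. With 2 mice a group, permutation tests of single values (scipy 1.17.1, two-sided) cannot go below 0.3333.

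The members and pathway lists were chosen with earlier results of these data known. Pathway genes are named as the 3 largest rises and falls among those called in a comparison, unless stated. Intervals and floors (3 counts) cover counting error only. The labels give the KO libraries' genotype as wild type, while their titles and descriptions give Alk1 KO, which was followed.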

Additional observations from a re-analysis of the deposited data

Results flagged for a closer look

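The KO difference was not the same in blood and lymphatic endothelial cells for 3 members, by the interaction test added after seeing the data. The difference in blood minus that in lymphatic-like cells was +1.01 for H2-K1, +0.56 for B2m and +0.43 for H2-D1 on the log2 scale (edgeR). Of these, H2-K1 was called in 9 of 9 alternatives, B2m in 5 of 9 and H2-D1 in 4 of 9. With 2 libraries in each group no library was tested as an outlier.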

How the results depend on the processing

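The 4 macrophage-like class II rises in anagen (Cd74, H2-Aa, H2-Ab1, H2-Eb1) and the lymphatic-like H2-K1 fall in the KO-labelled libraries were called in 9 of 9 alternatives each. For stage, 9 pairs were called, all higher in anagen, 41 with no filter on low counts (28 higher, 13 lower), 5 without likely doublets (all higher), 15 with the replicate block (11 higher, 4 lower) and 12 to 42 leaving out 1 library. These were 16 without WT telogen replicate 1 (9 higher, 7 lower), 12 without replicate 2 (all higher), 34 without WT anagen replicate 1 (9 higher, 25 lower) and 42 without replicate 2 (36 higher, 6 lower). For KO, 34 pairs were called, 24 with DESeq2, 38 with the replicate block and 23 to 45 leaving out 1 library. The replicate numbers only name the mice: same-numbered libraries' deviations correlated at -0.11 to 0.16 for stage and -0.16 to 0.13 for KO. For blood against lymphatic cells 4 members were called, 2 with DESeq2, 7 with no filter, 1 with no library block and 4 to 6 leaving out 1 library. For vein against capillary cells 3 were called, 1 with the stricter cell filter, 0 with no library block and 2 to 3 leaving out 1 library. For perineurial against blood cells 7 were called, 3 with the stricter cell filter, 3 with no library block and 7 leaving out any 1 library. The stage response between vessel types called 0, 3 with no filter and 0 to 4 leaving out 1 library. The KO difference between vessel types called 3, 1 with DESeq2, 1 with no library block and 1 to 3 leaving out 1 library. The class II share in blood cells was 8.61%, 23.998% without thinning and 6.68% to 10.7% leaving out 1 library, and the class II ratio moved from -0.20 to -0.78 at resolution 1.2. Stage values turned in sign and passed the threshold without WT anagen replicate 1 for Cd74 in vein-like cells (range over the left-out libraries -2.14 to +1.19), for Cd74 (-2.40 to +1.52), H2-Aa (-1.91 to +0.90) and H2-Ab1 (-1.05 to +0.75) in the Prdm1/Rsad2 cluster, for H2-Ab1 in lymphatic-like cells (-2.98 to +1.26) and for H2-K1 in pericyte-like cells (-0.83 to +0.66), each lowest without that library, and without WT anagen replicate 2 for Cd74 in lymphatic-like cells (+0.54, range -3.42 to +0.59). The cause was not tested. With 2 mice a group, changes near 2-fold are mostly missed, and KO immune-like classes hold few cells.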
